A study of Mus musculus with 4 samples.

Results

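Lymphatic endothelial identity genes are a set of 9 genes used to recognise the endothelium of lymphatic vessels: Prox1, Flt4, Lyve1, Pdpn, Thy1, Fxyd6, Reln, Mmrn1 and Nts. They were taken by name, without the copies of Ccl21, from a deposited table of 17915 genes, each typed there as mRNA, and all 9 had a row. The table comes from bulk RNA sequencing of sorted endothelial cells of mouse lung, with 2 tdTomato+ and 2 ZsGreen+ libraries that the titles number as biological replicates. All animals carried Cdh5-CreER, a Cre recombinase switched on by tamoxifen under a promoter of vascular and lymphatic endothelium. They also carried aSMA-LSL-Dre, a Dre recombinase under control of alpha smooth muscle actin that Cre has to release, and the reporter NR1. All received tamoxifen 5 times and were taken 6 weeks after transverse aortic constriction (TAC), a narrowing of the aorta that loads the heart and leads to lung fibrosis. A cell of this design is ZsGreen+ once marked as endothelial, and becomes tdTomato+ for good when the actin gene has been active in it, even briefly. There was no group without TAC, and the labels give neither age nor sex, nor say whether libraries were pooled from several mice or whether replicates came from separate mice. P-values therefore measure the spread between these libraries, which may be technical.

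Lymphatic vessels of the lung run with the airways and larger vessels and drain fluid, lipid and immune cells from the tissue. PROX1 sets and keeps the fate of their endothelium, and FLT4 (VEGFR-3) on its surface receives the growth signals VEGF-C and VEGF-D. LYVE1 and podoplanin are the classical surface markers, while reelin, multimerin 1 and neurotensin are secreted products. Several of these genes have sources outside lymphatic vessels as well, such as macrophages for Lyve1, alveolar type 1 cells and mesothelium for Pdpn, and fibroblasts and T cells for Thy1.

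The libraries held 17050673 to 18574737 estimated counts over coding genes. Acta2, the actin gene whose activity the design records, stood at 304 and 528 CPM in tdTomato+ and at 87.6 and 82.9 CPM in ZsGreen+ libraries (log2 fold change 2.29, edgeR adjusted p = 0.0432), a call lost without tdTomato+ replicate 2 (1.86, edgeR adjusted p = 0.126) or ZsGreen+ replicate 2 (2.24, edgeR adjusted p = 0.111). CPM, counts per 1000000 after scaling to a common library size, serve for one gene across libraries. TPM, which also divide by transcript length, serve for levels of different genes. All 12 genes of the list for endothelium of any kind (among them Pecam1 and Cdh5) were tested and none was called, with 1 at an unadjusted edgeR p under 0.05. Of these 12 genes, 10 had a log2 fold change below 0 (median -0.14), as did 6686 of all 13177 genes tested. For 5 of the 12 both tdTomato+ libraries lay below both ZsGreen+ libraries, and for 1 they lay above. Over all 13177 genes these numbers were 2395 and 2620. The summed level of the 12 genes was 14118 and 13600 CPM in tdTomato+ and 18074 and 14546 CPM in ZsGreen+ libraries.

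The sequences just before the transcription start are shown for Prox1, the fate regulator, and for the 3 secreted or membrane genes among those called below that have a RefSeq window, so that their make-up can be compared. Each is the run of 250 bases before a RefSeq start in GRCm38.p6, 5′ to 3′ on the gene's strand, and none overlaps an exon of GENCODE M21. Capitals mark matches on either strand to 5 motifs: AACAAT for SOX factors, AGGTCA for NR2F2, AGATAA for GATA factors, CCGGAA for ETS factors and TGTTTA for FOX factors. The windows are chr1:190170828-190171077 on the minus strand for Prox1, chr5:22344706-22344955 on the minus strand for Reln, chr6:60944067-60944316 on the plus strand for Mmrn1 and chr9:45369935-45370184 on the plus strand for Fxyd6, where it lies inside the gene's span before a later start.
Prox1: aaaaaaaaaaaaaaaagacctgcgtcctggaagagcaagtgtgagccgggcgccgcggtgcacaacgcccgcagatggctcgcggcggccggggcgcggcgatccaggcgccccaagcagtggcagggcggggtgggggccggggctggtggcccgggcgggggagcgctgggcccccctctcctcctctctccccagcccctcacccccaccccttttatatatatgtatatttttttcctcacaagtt
Reln: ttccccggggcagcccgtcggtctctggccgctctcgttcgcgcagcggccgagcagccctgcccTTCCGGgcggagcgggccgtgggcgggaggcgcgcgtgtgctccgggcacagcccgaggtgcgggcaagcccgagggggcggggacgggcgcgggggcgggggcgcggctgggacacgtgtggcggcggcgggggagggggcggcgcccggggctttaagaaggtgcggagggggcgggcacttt
Mmrn1: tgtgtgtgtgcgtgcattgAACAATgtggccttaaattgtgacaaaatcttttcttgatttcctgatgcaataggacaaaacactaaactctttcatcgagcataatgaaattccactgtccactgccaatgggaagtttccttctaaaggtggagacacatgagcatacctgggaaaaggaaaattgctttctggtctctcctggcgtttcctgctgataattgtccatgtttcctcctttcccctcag
Fxyd6: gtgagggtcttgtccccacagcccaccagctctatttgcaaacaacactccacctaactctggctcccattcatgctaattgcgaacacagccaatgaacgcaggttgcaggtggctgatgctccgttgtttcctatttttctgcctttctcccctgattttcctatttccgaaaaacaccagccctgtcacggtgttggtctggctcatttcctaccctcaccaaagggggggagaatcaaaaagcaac

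These 4 windows share no motif of the 5. The Reln window holds 1 match to the ETS motif and the Mmrn1 window 1 match to the SOX motif, while the windows of Prox1 and Fxyd6 hold none. Their base composition differs widely, from 80% G and C before Reln and 64.8% before Prox1 to 50.4% before Fxyd6 and 42.4% before Mmrn1. In all, 7 members have 8 such windows, Prox1 with 2 starts. The Prox1 window not shown holds 1 match to the FOX motif, 166 bases before its start. Over these 8 windows the SOX, NR2F2, GATA and ETS motifs each matched in 1 and the FOX motif in 2. Over all 32851 windows of this length the shares with a match were 9.42% for SOX, 14% for NR2F2, 9.99% for GATA, 12% for ETS and 12% for FOX. Thy1 and Lyve1 have no window shown. A match of 6 bases is a description and not a binding site.

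Of the 9 members 4 were called lower in tdTomato+ cells by edgeR's quasi-likelihood test (adjusted p under 0.05): Thy1, Reln, Mmrn1 and Fxyd6. Over all 13177 genes tested 0.304% were called in either direction and 0.137% were called lower. For 8 of the 9, all but Lyve1, both tdTomato+ libraries lay below both ZsGreen+ libraries, as they did for 18.2% of all genes tested. The same 8 had a fitted log2 fold change below -1, against 1.96% of all genes. The median log2 fold change (tdTomato+ over ZsGreen+) was -2.39 over the members and -0.01 over all genes. The members were chosen with earlier results of these data known, so their shares beside all genes are a description. In bulk RNA, fewer lymphatic cells among the tdTomato+ cells and less of these transcripts in each cell cannot be told apart.

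**Figure D1:**
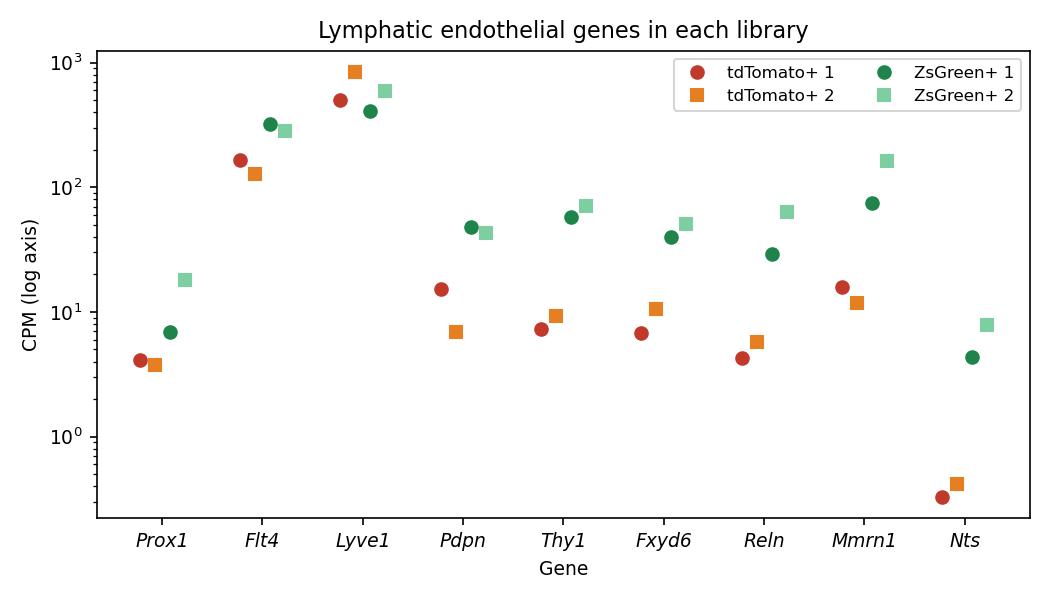
CPM on a log axis for the 9 lymphatic genes, 1 point per library, with tdTomato+ libraries in red and orange and ZsGreen+ libraries in greens. The groups lie apart for every gene other than Lyve1, where tdTomato+ replicate 1 (503 CPM) lies between the 2 ZsGreen+ libraries (407 and 593 CPM).

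Prox1 is the transcription factor that gives endothelium its lymphatic fate. Its level was 4.13 and 3.78 CPM in the tdTomato+ pair of libraries, against 6.9 and 17.9 CPM in the ZsGreen+ pair, resting on 72 to 326 counts per library. The groups did not overlap, yet the 2 ZsGreen+ libraries differed from each other by 2.59-fold. This gave a log2 fold change of -1.65 (SE 0.49) and an edgeR adjusted p of 0.34, which did not pass. It was called without ZsGreen+ replicate 1 (-2.17, edgeR adjusted p = 0.0267) and was -0.81 without ZsGreen+ replicate 2 (edgeR adjusted p = 0.416). Prox1 (NCBI Gene 19130) spans 190118035 to 190170827 on chromosome 1 of GRCm38. GENCODE places it on the minus strand with 2 genes, Gm28172 and Prox1os, overlapping it on the other strand. The deposited row gives the plus strand and draws on 9 transcripts, 3 of them RNAcentral entries, so antisense reads may be among its counts.

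Flt4 encodes VEGFR-3, the receptor for VEGF-C and VEGF-D, which blood capillaries can also express. Its level was 164 and 128 CPM in the tdTomato+ pair of libraries, against 319 and 281 CPM in the ZsGreen+ pair. The groups stood apart with little spread inside either, and 2432 to 5138 counts per library lay behind these values. The log2 fold change was -1.04 (SE 0.20, 95% interval -1.53 to -0.56), the smallest in size of the 8 negative ones, with an edgeR adjusted p of 0.144 that did not pass.

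Lyve1 encodes a receptor for hyaluronan that lymphatic endothelium shares with some macrophages. Its level was 503 and 840 CPM in the tdTomato+ pair of libraries, against 407 and 593 CPM in the ZsGreen+ pair. The groups overlapped, and replicate 2 was the higher library in both. This gave a log2 fold change of 0.42 (SE 0.31) and an edgeR adjusted p of 0.819, with a 95% interval of -0.30 to 1.15. A fall of the size fitted for any of the other 8 lies outside this interval, whose lower end allows tdTomato+ cells 1.23-fold less Lyve1 than ZsGreen+ cells. Lyve1 was also the most abundant member per transcript length, as given below.

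Pdpn encodes podoplanin, a mucin-like membrane protein that binds the platelet receptor CLEC-2. It stood at 15.4 and 6.88 CPM in the tdTomato+ pair of libraries, against 47.6 and 42.9 CPM in the ZsGreen+ pair. The ZsGreen+ libraries lay close together, while tdTomato+ replicate 2 held 0.448 times the level of replicate 1. This gave a log2 fold change of -2.03 (SE 0.37) and an edgeR adjusted p of 0.127, which did not pass. Pdpn spans 143267409 to 143299564 on chromosome 4 of GRCm38. Its deposited row names another scaffold and mixes positions of the 2, so which copy its counts come from cannot be told apart.

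Thy1 encodes a small glycoprotein anchored in the membrane by a lipid. It fell 7.78-fold (95% interval 5.25 to 11.5) in tdTomato+ cells, and in rank by p it was 2nd of all genes tested. Its level was 7.32 and 9.24 CPM there and 57.6 and 71.3 CPM in ZsGreen+ cells, from 133 and 176 against 911 and 1301 counts. Both groups were tight, for a log2 fold change of -2.96 (SE 0.24) and an edgeR adjusted p of 0.0304. Fxyd6, a short membrane protein that modulates the sodium pump, fell 5.25-fold (95% interval 3.26 to 8.46). It read 6.77 and 10.6 CPM in tdTomato+ and 40 and 51 CPM in ZsGreen+ libraries, with a log2 fold change of -2.39 (SE 0.29, edgeR adjusted p = 0.0407). Both genes lie on chromosome 9 of GRCm38, Thy1 at 44043384 to 44048579 and Fxyd6 at 45369470 to 45396159.

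Reln encodes reelin, a large secreted glycoprotein known from brain layering and also released by lymphatic endothelium. It fell 9.17-fold (95% interval 4.63 to 18.1), with 4.29 and 5.72 CPM in the tdTomato+ pair of libraries, against 28.9 and 63 CPM in the ZsGreen+ pair. This gave a log2 fold change of -3.20 (SE 0.41) and an edgeR adjusted p of 0.0465. Mmrn1 encodes multimerin 1, a secreted protein that platelets also store. It fell 8.6-fold (95% interval 4.51 to 16.4), with 15.8 and 11.7 CPM against 74.5 and 161 CPM, fitted as a log2 fold change of -3.10 (SE 0.39, edgeR adjusted p = 0.0432). In both genes ZsGreen+ replicate 2 held over 2 times the level of replicate 1, by 2.18-fold for Reln and 2.17-fold for Mmrn1. Without that library the log2 fold changes were smaller in size, -2.53 for Reln and -2.44 for Mmrn1. Neither gene was called with upper quartile factors (edgeR adjusted p = 0.0523 for Reln and 0.052 for Mmrn1). The same held with limma-voom (limma adjusted p = 0.107 and 0.0637). Reln spans 21884454 to 22344705 on chromosome 5, where GENCODE has 7 overlapping genes, 4 of them on the other strand. As for Prox1, its deposited row gives the plus strand where GENCODE gives the minus strand, and 10 of its 12 transcripts are RNAcentral entries. Mmrn1 spans 60944317 to 60989378 on chromosome 6, with no other GENCODE gene over it.

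Nts encodes the precursor of neurotensin, a short secreted peptide. It had the most negative log2 fold change of the 9, -4.00 (SE 0.59), and the widest 95% interval, -5.39 to -2.61. Its level was 0.33 and 0.42 CPM in the tdTomato+ pair of libraries, against 4.37 and 7.83 CPM in the ZsGreen+ pair. These rest on 6 and 8 counts against 69 and 143, so the tdTomato+ values are near the limit of what the libraries can measure. The edgeR adjusted p was 0.0715 and did not pass.

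**Figure D2:**
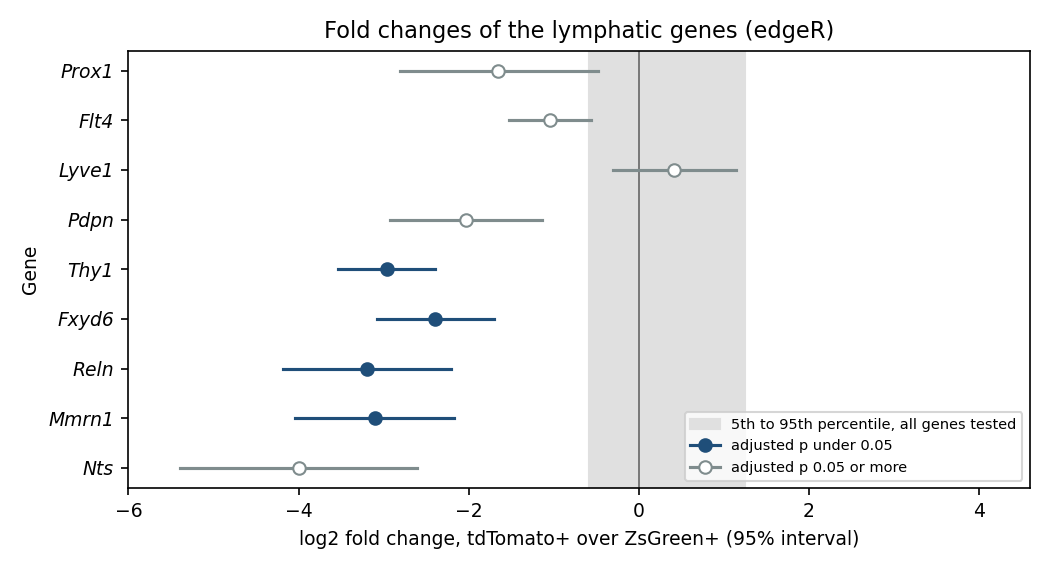
Log2 fold change (tdTomato+ over ZsGreen+) of each lymphatic gene with its 95% interval, filled where the edgeR adjusted p was under 0.05, over a grey band from the 5th to the 95th percentile of all genes tested (-0.58 to 1.25). Thy1, Fxyd6, Reln and Mmrn1 are filled, and the Lyve1 point at 0.42 lies inside the band.

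Per transcript length, Lyve1 led in every library, at 338 and 537 TPM in tdTomato+ and 221 and 380 TPM in ZsGreen+ libraries. Flt4 came next in both groups, at 47.1 and 35 TPM and at 74.3 and 77.3 TPM. In ZsGreen+ cells Thy1 (60.1 TPM on average), Mmrn1 (39.2), Fxyd6 (39.1) and Pdpn (39) followed with ranges that overlapped from each to the next. Nts (8.97 TPM), Reln (5.91) and Prox1 (2.35) came last, and their neighbouring ranges overlapped as well. In tdTomato+ cells the order after Flt4 was Pdpn (10.8 TPM), Thy1 (8.46), Fxyd6 (8.15), Mmrn1 (4.92), Prox1 (0.805), Reln (0.69) and Nts (0.595). Pdpn and Thy1, Thy1 and Fxyd6, and the last 3 genes overlapped their neighbours there. Mmrn1 thus stood apart from Fxyd6 on this scale in tdTomato+ cells and not in ZsGreen+ cells; that change of order was not tested.

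The members did not move as one between the 2 ZsGreen+ libraries. Replicate 2 over replicate 1 was 2.59 for Prox1, 2.18 for Reln, 2.17 for Mmrn1 and 1.79 for Nts. It was 1.45 for Lyve1, 1.28 for Fxyd6, 1.24 for Thy1, 0.901 for Pdpn and 0.883 for Flt4. Among the 10360 genes averaging 5 CPM or more this ratio had a median of 0.991, and 3.52% of them reached 2. Between the tdTomato+ libraries the same ratio ran from 0.448 for Pdpn to 1.67 for Lyve1. Both lay outside the 5th to 95th percentile of the 10360 genes there, 0.665 to 1.52. Counting error alone bears most on Nts, at under 10 counts in each tdTomato+ library.

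Leaving out a single library changed which members were called, while the direction held in each such fit for all 9. Without tdTomato+ replicate 2 none of the 9 was called (0.0295% of genes called lower), with edgeR adjusted p from 0.102 for Thy1 to 0.999 for Lyve1; 8 of the 9, all but Lyve1, had an unadjusted p under 0.05 there, as did 5.24% of all genes. Without tdTomato+ replicate 1 Thy1 alone was called (0.0443% of genes). Without ZsGreen+ replicate 1 the calls were Prox1, Reln, Mmrn1, Thy1, Fxyd6 and Nts (0.735% of genes), and without ZsGreen+ replicate 2 they were Reln, Mmrn1 and Thy1 (0.117% of genes). In these fits 1 group has a single library, which is assumed to vary like the other group. DESeq2 called 7 members lower, adding Flt4, Pdpn and Nts to the 4, where it called 0.933% of genes lower.

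**Figure D3:**
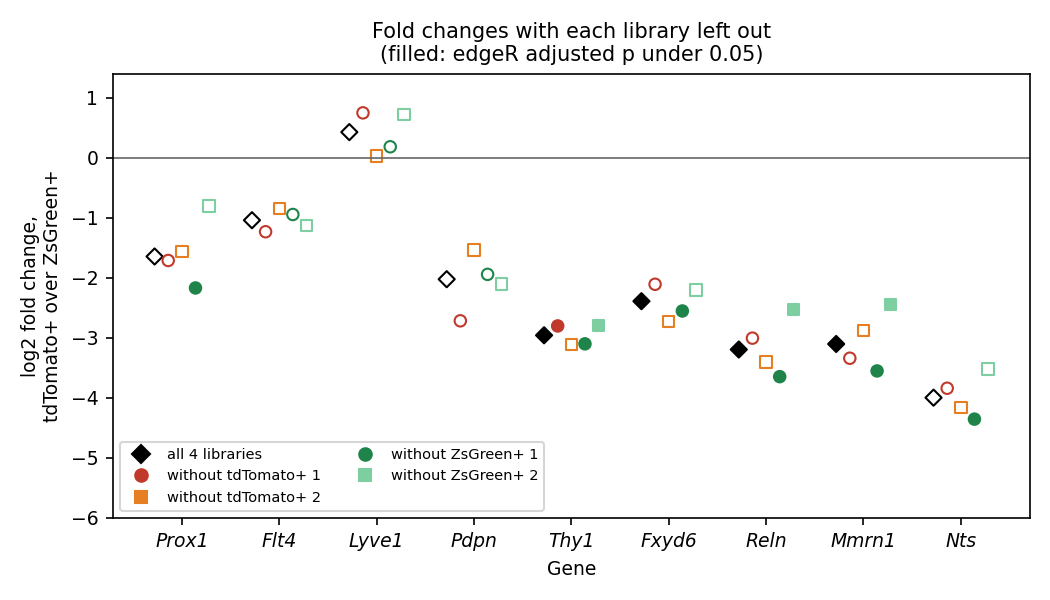
Log2 fold change (tdTomato+ over ZsGreen+) of each lymphatic gene with all 4 libraries and with each library left out, filled where the edgeR adjusted p was under 0.05. Thy1 runs from -3.12 to -2.80 over the 4 reduced fits and Prox1 from -2.17 to -0.81.

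Other genes of lymphatic biology were counted from 4 further lists, and none of their members was called by edgeR. An unadjusted edgeR p under 0.05 was reached by 3 fate factors, 0 signalling genes, 5 valve, junction and recruitment genes and 1 partner, where 8.77% of all genes tested reached it. DESeq2 called 1, 0, 3 and 0 of them, and 2.44% of all genes, in either direction. Of 12 transcription factors of lymphatic fate and valves 11 were tested, with a median log2 fold change of -0.04. Tbx1, a T-box factor needed for lymphatic growth, stood at 2.64 and 1.58 CPM in the tdTomato+ pair, against 10.6 and 15.8 CPM in the ZsGreen+ pair (log2 fold change -2.65, edgeR adjusted p = 0.0915), and Maf read 2.7 and 0.945 against 4.81 and 7.34 CPM. Foxc2, a factor of lymphatic valves, lay the other way, at 12.5 and 8.61 CPM against 6.07 and 1.75 CPM (a fitted log2 fold change of 1.44, edgeR adjusted p = 0.544), as did Foxc1 (1.07, SE 0.46). Foxc2 rested on single libraries, with 2.59 without ZsGreen+ replicate 1 (edgeR adjusted p = 0.0439) and 0.80 without ZsGreen+ replicate 2 (edgeR adjusted p = 0.398). Without ZsGreen+ replicate 1 Tbx1 was called too (-2.90, edgeR adjusted p = 0.0227). The groups did not overlap for Tbx1 and Maf, both lower in tdTomato+ cells, or for Foxc2 and Foxc1, both higher there. In the whole list 2 of the 11 tested stood apart in the lower and 3 in the higher direction. Over all 13177 genes tested these numbers were 2395 and 2620.

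Of 13 genes of VEGF-C and VEGF-D signalling other than Flt4 11 were tested, with a median log2 fold change of 0.14. The ligand Vegfd stood at 3.14 and 7.3 CPM in the tdTomato+ pair, against 2.21 and 3.4 CPM in the ZsGreen+ pair, and Svep1, an extracellular matrix protein, at 1.38 and 2.57 against 0.19 and 0.876 CPM. The groups overlapped for Vegfd and not for Svep1. Svep1 rested on few counts, 25 and 49 against 3 and 16, for a log2 fold change of 1.86 (95% interval -0.16 to 3.87). Kdr, the main VEGF receptor of blood endothelium, read 377 and 300 against 422 and 454 CPM, a log2 fold change of -0.37 (SE 0.20). The coreceptor Nrp2 read 203 and 185 against 137 and 170 CPM, a log2 fold change of 0.33 (SE 0.19). The groups did not overlap for either, with Kdr lower and Nrp2 higher in tdTomato+ cells (edgeR adjusted p = 0.715 and 0.739). Of all 13177 genes tested 2395 stood apart in the lower and 2620 in the higher direction. Whether Kdr and Nrp2 differ from Flt4 was not tested.

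Of 17 genes of lymphatic valves, junctions and leukocyte traffic 15 were tested, with a median log2 fold change of -0.18, and 5 had a log2 fold change below -1. The semaphorins Sema3a and Sema3d are guidance signals. Sema3a stood at 2.59 and 1.42 CPM in the tdTomato+ pair, against 10.1 and 16.4 CPM in the ZsGreen+ pair (log2 fold change -2.72, edgeR adjusted p = 0.101), and Sema3d at 1.05 in both against 2.72 and 8.49 CPM. Ackr2, a scavenger receptor of inflammatory chemokines on lymphatic endothelium, read 80.9 and 118 against 217 and 335 CPM (-1.47, SE 0.28, edgeR adjusted p = 0.143). These 3 genes, named for their small p, had both tdTomato+ libraries below both ZsGreen+ libraries. In the whole list 7 of the 15 tested did, and 1 lay above, against 2395 and 2620 of all 13177 genes. Without ZsGreen+ replicate 1 the log2 fold changes were -3.03 for Sema3a, -3.01 for Sema3d and -1.75 for Ackr2. Without ZsGreen+ replicate 2 they were -2.33, -1.37 and -1.13.

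Of 20 receptors, enzymes and partners of the members' products 15 were tested, with a median log2 fold change of 0.20. The integrin Itgb3 (0.68, SE 0.18) had the smallest p, with an edgeR adjusted p of 0.28. Galnt1, which starts mucin-type glycans such as those of podoplanin, had a log2 fold change of -0.39 (SE 0.20). The sodium pump subunit Atp1b3 lay at 0.22 (SE 0.18). The reelin receptor Vldlr stood at 10.4 and 5.78 CPM in the tdTomato+ pair, against 5.95 and 4.55 CPM in the ZsGreen+ pair.

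**Figure D4:**
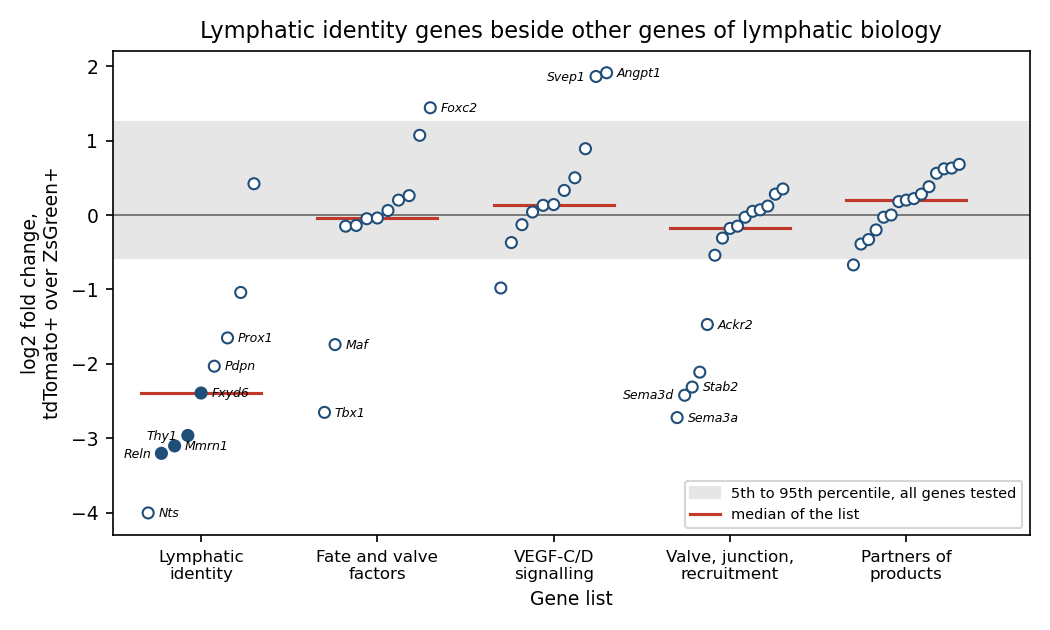
Log2 fold change (tdTomato+ over ZsGreen+) of each tested gene in the lymphatic identity list and in 4 further lists, filled where the edgeR adjusted p was under 0.05, with the list medians in red and the 5th to 95th percentile of all genes in grey. Filled points occur in the identity list alone, whose median of -2.39 lies below the medians of the other lists (-0.18 to 0.20). All lists were chosen with earlier results of these data known, so this contrast is a description.

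Genes of like pattern were sought among 10154 other genes averaging 5 CPM or more. Likeness was the root-mean-square difference, over the 4 libraries, between a gene's centred log2 CPM and the median profile of the members. The nearest were Xpnpep2, an aminopeptidase (0.17), Pard6g, a polarity protein (0.19), Ntrk2, a neurotrophin receptor (0.21), Tbx1 (0.26), the keratin Krt80 (0.30) and Sema3a (0.31). Xpnpep2 stood at 2.53 and 2.94 CPM in the tdTomato+ pair, against 17.3 and 20.1 CPM in the ZsGreen+ pair. Among the members the same measure ran from 0.24 for Fxyd6 and 0.27 for Thy1 to 0.76 for Flt4 and 1.47 for Lyve1. Tbx1 and Sema3a are also on the lymphatic lists above.

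Markers of other cells that express a member were read beside it. For macrophages, 11 of 11 markers had a log2 fold change above 0, as did 6491 of all 13177 genes tested. None was called, and 2 had an unadjusted edgeR p under 0.05, against 8.77% of all genes. For 3 of the 11 both tdTomato+ libraries lay above both ZsGreen+ libraries, against 2620 of all genes. The summed level of the 11 markers was 4399 and 2261 CPM in tdTomato+ and 2567 and 570 CPM in ZsGreen+ libraries. The sum was thus higher in replicate 1 in both groups, while Lyve1 was higher in replicate 2. Not every macrophage marker followed the sum. Of the 4 with the smallest p, F13a1 (5.45 and 5.88 against 1.9 and 2.79 CPM) was higher in replicate 2 in both groups. So was Marco (11.3 and 55.2 against 5 and 12.7 CPM). Adgre1 (20.8 and 12.4 against 11.9 and 3.29 CPM) and Cd68 (167 and 94.3 against 106 and 25.1 CPM) followed the sum. The 8 alveolar type 1 markers summed to 27 and 68.1 CPM against 34.7 and 43.3 CPM, where tdTomato+ replicate 2, the library with the least Pdpn, held the most. Mesothelial markers summed to 17.8 and 31.4 against 14.4 and 11 CPM, with 5 of 7 at 0 in at least 1 library. Most of that sum was 1 gene, Krt19 (15.9 and 22.1 against 12.2 and 8.76 CPM), and only 2 of the 7 were tested.

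For Thy1, fibroblast markers summed to 238 and 439 CPM in the tdTomato+ pair, against 96.7 and 120 CPM in the ZsGreen+ pair. In log2 fold change 9 of 9 lay above 0, opposite to Thy1, as did 6491 of all 13177 genes tested. None was called, and 6 had an unadjusted edgeR p under 0.05, against 8.77% of all genes. For 6 of the 9 both tdTomato+ libraries lay above both ZsGreen+ libraries, against 2620 of all genes. T cell markers summed to 34.2 and 30.3 against 27.3 and 20.4 CPM. For Mmrn1, platelet markers summed to 26 and 22.5 against 36.9 and 17.7 CPM. Of the 5 tested, 4 had a log2 fold change below 0 as Mmrn1 did (median -0.24), against 6686 of all 13177 genes. None of the 5 platelet markers was called. ZsGreen+ replicate 2, with the most Mmrn1, held the least of them. Pericyte and smooth muscle markers summed to 24.9 and 37.1 against 27 and 30.1 CPM. Neuroendocrine and nerve markers, read beside Nts and Reln, summed to 9.68 and 36.4 against 5.06 and 17.3 CPM, with 1 of 6 at 0 throughout. The part of these cells in the members' levels was not tested beyond these values.

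**Figure D5:**
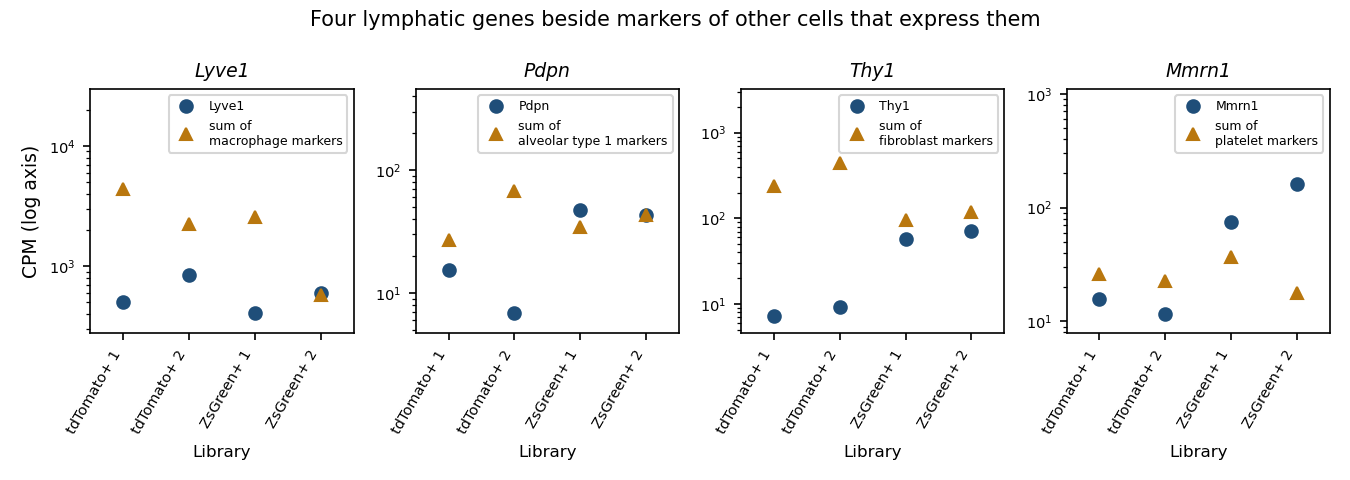
CPM on a log axis, by library, of 4 lymphatic genes (blue circles) and of the summed markers of another cell type that can express each (brown triangles). Thy1 is highest in the ZsGreen+ libraries (57.6 and 71.3 CPM), where fibroblast markers are lowest (96.7 and 120 CPM).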

How the data were processed

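RNA was extracted from sorted cells with a Qiagen micro kit, amplified over the whole transcriptome and made into libraries for MGI sequencers, per the labels' protocols. Amplification from little RNA can add spread, and no molecular identifiers are named. RSEM 1.3.1, DESeq2 1.4.5 and the builds mm10 and GRCm38 stand in the submitters' processing notes without a role, while no source used here gives the aligner or strandedness. The deposited table holds estimated counts (16.2% to 17.9% of values not whole), TPM, FPKM and normalized counts. The normalized counts are a signal that the authors deposited without its scaling, and neither they nor the deposited FPKM were used for any value. The authors' TPM columns each sum to about 1000000.

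Estimated counts were rounded and tested with edgeR 4.0.16 in R 4.3.3, tdTomato+ against ZsGreen+, with the two-sided quasi-likelihood F-test, TMM factors (0.927 to 1.045) and filterByExpr (minimum count 10), which left 13177 genes including all 9 members. P-values were Benjamini-Hochberg adjusted over all of these, and 0.05 was the threshold. Standard errors were derived from each log2 fold change and its F statistic. The coefficient of variation between libraries of a group, as edgeR estimates it over all genes, was 26.1%, and the procedure was tested on simulated data. Chromosome spans come from RefSeq in GRCm38, with 17862 of 17915 identifiers matched, and promoter windows from RefSeq in GRCm38.p6.

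The members and lists (13 others with 136 genes, 3 of them without a row analysed here) were chosen with earlier results of these data known. Named are all members, Acta2, up to 4 genes of each further lymphatic list by smallest p at a mean of at least 1 CPM, and the 6 genes of nearest pattern without predicted, RIKEN or LOC names; 1 gene that this rule names is not reported here. The same choice in the lists of other cell types is given there as counts and sums, with the macrophage markers and Krt19 also named. Pecam1 and Cdh5 are named as examples outside this rule. As alternatives the data were fitted with upper quartile or RLE factors, DESeq2 1.42.0, limma 3.58.1 with voom, no filter, at least 5 CPM in 2 libraries, each library left out, a replicate block, and limma on log2 of TPM plus 1 or plus 0.1.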

Additional observations from a re-analysis of the deposited data

How the results depend on the processing

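Every one of the 14 alternatives in which a member was tested gave it the same direction. Nts was not tested at a minimum of 5 CPM in 2 libraries. The members called lower numbered 2 with upper quartile factors (0.114% of all genes called lower) and 2 with limma-voom (0.121%), Thy1 and Fxyd6 in each, 7 with DESeq2 (0.933%), 1 (Thy1) with limma on log2 of TPM plus 1 (0.0751%) or plus 0.1 (0.0501%), and 0 with plus 0.1 over all genes above 0. That last setting called 0 genes in all, with 1445 genes (8.62%) and 7 members at an unadjusted p under 0.05. Without a filter 6 members were called lower (0.269% of genes). Over the 4 fits that each leave out a library the members called ranged from 0 to 6. All genes called ranged there from 4 to 304, and genes called lower from 4 to 101. The Lyve1 log2 fold change ran from 0.03 to 0.75 over the alternatives and was never called. On log2 TPM the median of all genes shifted to 0.12, 0.13 and 0.17.

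Against 40 calls, 18 of them lower, DESeq2 called 330 (126 lower), edgeR without a filter 128 (45 lower) and limma on log2 of TPM plus 0.1 22 (6 lower), while 9 were lower with plus 1. The causes of these differences were not tested. With the replicate block edgeR called 934 genes, 255 of them lower (1.94%), and 8 of the 9 members, all but Lyve1. The labels do not say that a number pairs libraries. Same-numbered libraries deviated together from their group means (r = 0.45 across genes, which are not independent replicates), a hint from the data with 2 pairs only.

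Among the other lists, where no gene was called, DESeq2 called 1 fate factor, 3 valve, junction and recruitment genes, 1 endothelial, 4 fibroblast and 1 neuroendocrine marker. Over all genes it called 2.44%. Without a filter 1, 2, 2 and 1 were called in the fate, valve, fibroblast and neuroendocrine lists, and 128 of all 16747 genes. The replicate block called 3 fate factors, 5 valve, junction and recruitment genes, 7 macrophage and 6 fibroblast markers. It also called 1 each of partners, endothelial, mesothelial, pericyte, T cell and neuroendocrine genes, and 934 of all 13177 genes. Leaving out libraries gave 0 to 2 fate, 0 to 3 valve, 0 to 4 macrophage and 0 to 1 fibroblast calls. Depth limits Nts most, at 6 and 8 counts in tdTomato+ libraries.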

Other observations

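Lyve1 made up a different part of the summed level of the 9 genes in each group. This was looked at after the values had been seen and was not tested. Of the TPM summed over the 9 lymphatic genes Lyve1 held 80.1% and 88.9% in the tdTomato+ libraries and 49.7% and 54.5% in the ZsGreen+ libraries. With Lyve1 the sum was 422 and 604 TPM against 445 and 697 TPM, so the groups overlapped. Without it the other 8 genes summed to 84.2 and 66.8 TPM in tdTomato+ cells and to 224 and 317 TPM in ZsGreen+ cells, and the groups did not overlap. A score summed over these genes therefore depends on whether Lyve1 is in it, and the cells its RNA came from were not tested.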
